A study of Mus musculus with 34 samples.

Results

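The clustered histone genes are the rows of the gene table whose symbols begin with Hist1h, Hist2h, Hist3h or Hist4h, and there were 68 of them among 23366 symbols. The next characters of the symbol give the class, with 6 genes for the linker histone H1, 18 for H2A, 19 for H2B, 12 for H3 and 13 for H4. Of these, 54 belong to the large Hist1 cluster, which lies on mouse chromosome 13, 10 to Hist2 on chromosome 3, 3 to Hist3 on chromosome 11, and Hist4h4 on chromosome 6 stands alone. Values came from RNA-seq of the mouse embryonic stem cell line J1, cultured in serum medium on gelatin without leukaemia inhibitory factor (serum/-LIF, 2 libraries) or in the same medium without LIF and with purified Royalactin, the royal jelly protein of the honey bee, at 0.5 mg/ml (serum/-LIF + Royalactin, 2 libraries). The labels place both groups at passage 40, where the study's text names another passage for J1 cells, and give no genetic modification. They also state that cultures were grown in triplicate, while 2 RNA libraries per group were analysed here. The cells are a single line, and nothing in the labels ties a numbered library to a particular culture, so the p-values measure only the spread between libraries, which may be technical. Serum/+LIF RNA libraries were not analysed here. The comparison asks whether Royalactin, which the study tests in place of LIF, went with different histone mRNA levels.

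Histones are the proteins around which DNA is wrapped. The nucleosome core is built from H2A, H2B, H3 and H4, and H1 binds the linker DNA at its edge. Clustered histone genes are mostly short and without introns, and their mRNAs usually end in a conserved stem-loop instead of a poly(A) tail, bound by Slbp. Most are transcribed in S phase, when newly replicated DNA has to be packaged, and embryonic stem cells spend much of their cycle in S phase. Because ribosomal RNA was depleted and no poly(A) selection was made, such mRNAs can enter these libraries. A lower level in bulk RNA cannot tell fewer cells in S phase apart from less histone mRNA per cell.

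Many genes of the H2A, H2B, H3 and H4 classes have closely matching sequences, which limits what a count per gene means. Each exon was cut into all windows of 75 bases, the read length, and each window was looked for elsewhere in the genome (mm9). In 45 of the 68 genes at least 50% of windows had another place in the genome with at most 2 mismatches, the mismatch limit of the authors' alignment. In 23 genes the share was lower, among them every H1 gene, at 0 to 27.4%. The counts of the former are therefore uncertain, because how reads with several places were assigned is not stated. The first 75 coding bases of H4 genes are shown here because they cover a read's length in the class where Hist1h4d gave the most reads, with capitals at each base that differs from Hist1h4d.
Hist1h4d, 0 differences, chr13:23673471-23673545 (+): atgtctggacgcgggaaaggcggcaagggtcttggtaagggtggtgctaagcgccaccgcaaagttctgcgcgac
Hist1h4f, 17 differences, chr13:23643438-23643512 (-): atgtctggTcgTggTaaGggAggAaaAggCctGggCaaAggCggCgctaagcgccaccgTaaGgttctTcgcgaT
Hist1h4j, 12 differences, chr13:21826965-21827039 (+): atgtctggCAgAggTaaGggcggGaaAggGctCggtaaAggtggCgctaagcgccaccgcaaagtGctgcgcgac
Hist1h4k, 14 differences, chr13:21842300-21842374 (-): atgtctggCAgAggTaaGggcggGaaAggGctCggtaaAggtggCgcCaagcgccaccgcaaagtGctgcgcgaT
Hist4h4, 11 differences, chr6:136752826-136752900 (-): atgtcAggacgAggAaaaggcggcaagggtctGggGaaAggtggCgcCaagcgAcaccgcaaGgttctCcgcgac
The 13 H4 genes gave 12 distinct stretches, with a median of 13 differing bases between any 2 genes. Hist1h4j and Hist1h4k differed from each other at only 2 bases of the 75, and Hist1h4m and Hist1h4n at none. Hist4h4 had no window with a near-match elsewhere, whereas 58.6% of the windows of Hist1h4d did.

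In the H2A class, some genes with identical copies had no reads, while others that share this stretch did. The same stretch is printed for 3 genes of the Hist2 cluster, with capitals where a base differs from Hist2h2aa1.
Hist2h2aa1, 0 differences, chr3:96049504-96049578 (+): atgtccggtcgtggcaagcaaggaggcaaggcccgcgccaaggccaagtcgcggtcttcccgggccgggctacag
Hist2h2aa2, 0 differences, chr3:96044099-96044173 (-): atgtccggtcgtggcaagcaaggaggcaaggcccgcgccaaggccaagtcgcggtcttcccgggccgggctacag
Hist2h2ac, 4 differences, chr3:96024693-96024767 (-): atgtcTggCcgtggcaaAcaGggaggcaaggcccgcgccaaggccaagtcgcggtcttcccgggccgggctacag
Hist2h2aa1 and Hist2h2aa2 are identical over these bases and were listed at 0 in all 4 libraries, while Hist2h2ac, which differs at 4 bases, had a value in each. Identity over this stretch alone did not go with 0. Hist1h2ad and Hist1h2af do not differ there and had mean normalised counts of 717 and 1120. Hist1h2ag and Hist1h2an do not differ there either and had means of 1350 and 418. In all, 6 genes were at 0 in every library, namely Hist1h2ao, Hist1h2ap, Hist1h2bq, Hist1h2br, Hist2h2aa1 and Hist2h2aa2. These were exactly the 6 genes in which 100% of the windows had an exact copy elsewhere. Among the 62 genes with reads the highest such share was 91.3%, in Hist1h4n. Whether reads of the 6 genes were discarded in counting was not tested, so their 0 is not read as silence. All 62 genes with reads had a mean normalised count of at least 10 and entered the tests.

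**Figure D1:**
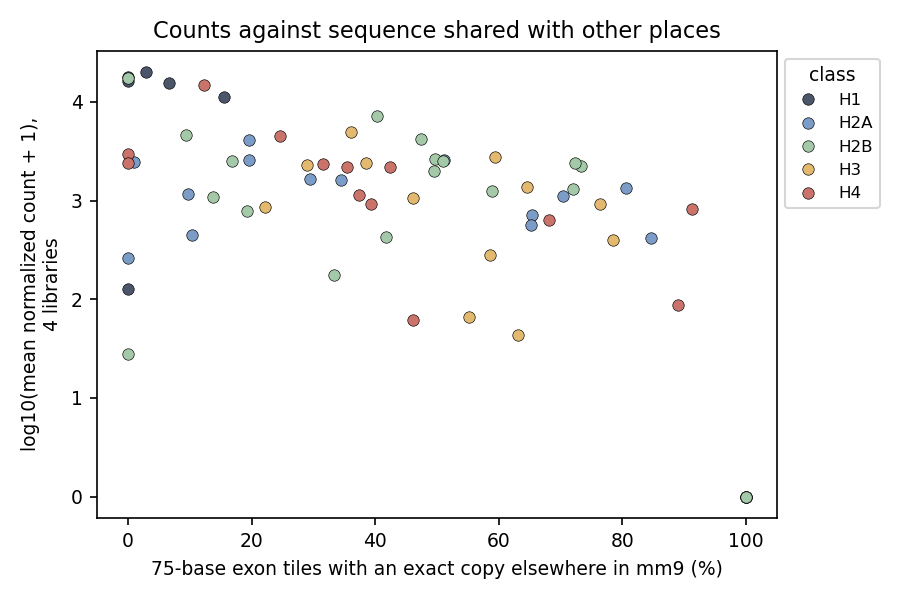
Each point is a clustered histone gene, coloured by class. The horizontal axis gives the percentage of its 75-base exon windows that have an exact copy elsewhere in mm9 and the vertical axis log10 of the mean normalised count of the 4 libraries plus 1. The 6 genes at 100% lie together at 0, and the gene nearest to them, at 91.3%, lies far above 0.

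The 3' stem-loop sets most of these genes apart from the rest of the transcriptome and was found within 150 bases after the stop codon in 63 of 66 genes with an annotated stop. It was not found in that window for Hist1h2an, Hist2h2bb and Hist2h2be, which says only that no matching letters stood there. Its sequence followed the class. The following examples carry the 16-base stem-loop in capitals, with 4 flanking bases on each side in lower case (mm9, strand in brackets).
Hist1h1d, chr13:23647652-23647675 (+): aaacGGCTCTTTTCAGAGCCaccc
Hist1h4d, chr13:23673815-23673838 (+): caaaGGCCCTTTTCAGGGCCacta
Hist1h4j, chr13:21827302-21827325 (+): taaaGGTCCTTTTCAGGACCacca
The stem of Hist1h1d begins with GGCTC, as did that of all 50 genes found outside the H4 class. None of the 13 H4 genes had it. In 11 of them the stem began with GGCCC, and in Hist1h4b and Hist1h4j with GGTCC.

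Promoter sequence (RefSeq, GRCm38.p6, 250 bases before to 50 after the start) was given for 61 of the genes, and 4 motifs were looked for on both strands. TATAAA, the TATA box, was in 57.4% of these promoters and in 14.2% of all 27025 promoters of the same length. CCAAT, the site of the NF-Y complex, was in 85.2% against 37.9%. It was in every promoter of the 49 H1, H2A, H2B and H3 genes given and in 3 of 12 of H4. ATGCAAA, the core of the octamer that Oct factors bind, stood in 7 of 17 H2A, 6 of 16 H2B and 1 of 12 H4 promoters, against 4.59% of all promoters. AAACACA, the H1 box, stood in 5 of 6 H1, 2 of 17 H2A and 2 of 16 H2B promoters and in none of H3 and H4, against 7.14% of all. Neighbouring H2A and H2B genes that start in opposite directions can have overlapping promoter windows. A match between them is then counted once in each class, as with the octamer and the H1 box of Hist1h2aa and Hist1h2ba. The promoters below are those of an H1, an H2B and an H4 gene described further on, with the motif letters in capitals on either strand.
Hist1h1e, chr13:23622509-23622808 (-): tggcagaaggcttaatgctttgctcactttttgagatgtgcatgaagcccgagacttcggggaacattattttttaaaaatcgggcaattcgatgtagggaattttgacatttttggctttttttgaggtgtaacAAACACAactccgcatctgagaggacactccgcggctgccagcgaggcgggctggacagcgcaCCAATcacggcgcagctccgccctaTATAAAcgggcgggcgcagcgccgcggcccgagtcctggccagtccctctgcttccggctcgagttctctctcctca
Hist1h2bb, chr13:23746484-23746783 (+): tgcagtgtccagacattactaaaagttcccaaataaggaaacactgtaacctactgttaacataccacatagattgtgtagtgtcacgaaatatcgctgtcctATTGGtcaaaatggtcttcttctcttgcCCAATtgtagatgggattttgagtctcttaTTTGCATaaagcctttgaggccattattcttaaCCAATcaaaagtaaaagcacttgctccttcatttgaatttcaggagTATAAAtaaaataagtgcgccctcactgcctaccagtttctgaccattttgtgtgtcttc
Hist1h4d, chr13:23581318-23581617 (+): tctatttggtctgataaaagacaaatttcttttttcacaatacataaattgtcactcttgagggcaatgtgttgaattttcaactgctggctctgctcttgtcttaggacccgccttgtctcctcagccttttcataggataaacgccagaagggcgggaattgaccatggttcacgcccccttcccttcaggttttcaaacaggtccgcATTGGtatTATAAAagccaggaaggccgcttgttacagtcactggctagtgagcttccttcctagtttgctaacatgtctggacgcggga
Hist1h1e holds the H1 box, a CCAAT match and the TATA box in that order, Hist1h2bb holds 3 CCAAT matches with an octamer and a TATA box, and Hist1h4d holds 1 CCAAT match, on the other strand, and a TATA box. A match is a match of letters and not evidence of binding.

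The libraries held 14763153 and 14737796 reads on genes in serum/-LIF and 17112747 and 17597818 with Royalactin. Rn45s, the ribosomal RNA precursor, took 46.6% and 21.6% of them in serum/-LIF replicates 1 and 2 and 38.4% and 9.08% in Royalactin replicates 1 and 2. Clustered histone genes made up 1.88%, 2.21%, 1.33% and 2.03% of the remaining reads, in the same order. Of 10 stem cell markers tested, 5 (Sox2, Zfp42, Esrrb, Klf4 and Tfcp2l1) were called higher with Royalactin, where 0.331% of all genes were. Of the other 5, Nanog (1.02), Dppa5a (0.76), Pou5f1 (0.25) and Utf1 (0.10) had positive log2 fold changes and Tdgf1 a negative value (-0.45). The summed normalised count of the 10 ran from 25360 to 31400 in serum/-LIF and from 35820 to 42560 with Royalactin. Of 11 fibroblast markers 4 were tested and none was called, where 0.493% of all genes were called in either direction. The log2 fold changes of these 4 markers were -5.13 (Dcn), -1.35 (Col5a1), -0.02 (Thy1) and 2.38 (Pdgfra). The summed level of all 11 was 235 to 334 in serum/-LIF and 113 to 180 with Royalactin, most of it from Col5a1 in serum/-LIF replicates 1 and 2. Pdgfrb, Postn and S100a4 were at 0 throughout.

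The summed normalised count of every class was lower on average with Royalactin, but the 2 groups overlapped in every class. The ratio of the group means changed sign when short RNAs set the scale, through Royalactin replicate 1 (values given further on). H1 had the highest summed count of the classes, without correction for exon length. This sum was 76647 and 106793 in serum/-LIF replicates 1 and 2 and 57392 and 81965 in Royalactin replicates 1 and 2. H2B summed to 53161 and 64988 without and 38862 and 53915 with Royalactin. H4 summed to 32338 and 44578 without and 21126 and 41795 with Royalactin. Royalactin replicate 1 was the lowest library for all 5 classes and serum/-LIF replicate 2 the highest. H2A summed to 19748 and 26368 in serum/-LIF and to 12889 and 25327 with Royalactin. H3 summed to 16331 and 21302 in serum/-LIF and to 11215 and 20703 with Royalactin. Over all 68 genes the mean was 231128 ± 46530 (SD, n = 2) in serum/-LIF and 182594 ± 58139 (SD, n = 2) with Royalactin, a ratio of 0.790.

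**Figure D2:**
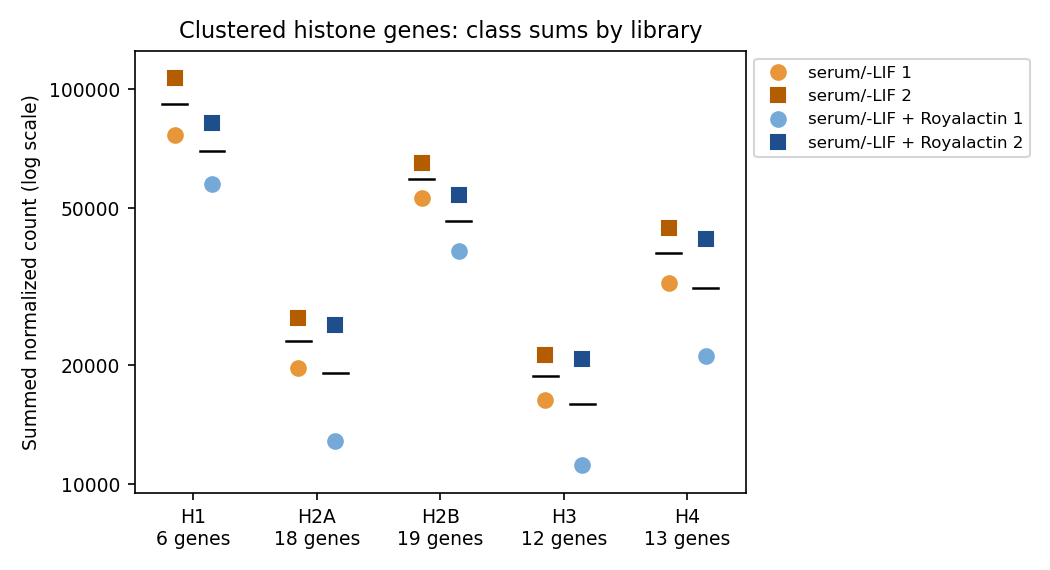
The summed normalised count of each histone class (vertical axis, log scale) is plotted for each library, with circles for replicate 1, squares for replicate 2 and a black line at each group's mean. In all 5 classes Royalactin replicate 2 lies between the serum/-LIF libraries, and Royalactin replicate 1 lies lowest.

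Taken by replicate number, the log2 difference of the class sums (Royalactin minus serum/-LIF) was negative in both pairs. In replicate 1 it was -0.42 for H1, -0.62 for H2A, -0.45 for H2B, -0.54 for H3 and -0.61 for H4. In replicate 2 it was -0.38 for H1 and -0.27 for H2B, and it was close to 0 for H2A (-0.06), H3 (-0.04) and H4 (-0.09). The labels do not say whether a number marks a shared culture, and the other pairings gave another picture. Royalactin replicate 2 was above serum/-LIF replicate 1 in every class, by 0.02 (H2B) to 0.37 (H4) on the log2 scale. The log2 ratios of the group means, -0.40 for H1, -0.27 for H2A, -0.35 for H2B, -0.24 for H3 and -0.29 for H4, stood beside pooled SDs between replicates of 0.35, 0.53, 0.28, 0.48 and 0.54. With 2 libraries against 2 an exact two-sided permutation test cannot give a p below 0.333, and the class sums were given no other test. Without Royalactin replicate 1 the ratios of H2A, H3 and H4 turned to 0.14, 0.14 and 0.12, and those of H1 and H2B were -0.16 and -0.13. Scaled to 6 short RNAs that carry no poly(A) tail, all 5 ratios of the group means turned positive, between 0.10 and 0.18. The divisors were 1.01 and 1.30 in serum/-LIF and 0.469 and 1.62 with Royalactin, in replicate order, and came mostly from Rmrp and Rpph1. On this scale Royalactin replicate 1 lay above both serum/-LIF libraries and replicate 2 below both, in every class. The positive sign therefore rests on Royalactin replicate 1.

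The 2 Royalactin libraries differed from each other by more than the group means did in every class. Replicate 1 was below replicate 2 by 0.97 for H2A, 0.88 for H3 and 0.98 for H4 on the log2 scale, and by 0.51 for H1 and 0.47 for H2B. Each of 6 short RNAs without a poly(A) tail was also lower in replicate 1 than in replicate 2. Rmrp, the RNA of the RNase MRP complex, had a normalised count of 190121 and 222619 in serum/-LIF and of 78734 and 302200 with Royalactin. Rpph1, the RNA of RNase P, was at 80372 and 126466 without and at 46252 and 130281 with Royalactin. Terc, the telomerase RNA, was at 1629 and 2608 without and at 1085 and 3235 with Royalactin. Royalactin replicate 1 held the lowest value of all 3. Their part in the histone difference, and that of Rn45s, was not tested. Rn45s, which is long, stood in the same list and ran the other way, with 6612820 in Royalactin replicate 1 and 1100220 in replicate 2. Of the 7 RNAs of the list none was called, where 0.493% of all genes tested were. Among the 7, 4 had a log2 fold change below 0, Rn45s included, and 3 above.

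The order of the classes in the histone counts, H1, H2B, H4, H2A and H3, was the same in all 4 libraries. H1 gave 38.7% and 40.4% of the counts in serum/-LIF and 40.6% and 36.6% with Royalactin. H2B gave 26.8% and 24.6% without and 27.5% and 24.1% with Royalactin, and H4 16.3% and 16.9% without and 14.9% and 18.7% with Royalactin. H2A stayed between 9.11% and 11.3% and H3 between 7.93% and 9.25%. The exact 95% binomial interval of a share (Clopper-Pearson), which covers counting error only, was at most ± 0.257 percentage points for a single share. The group means differed by -0.95 (H1), 0.24 (H2A), 0.07 (H2B), 0.44 (H3) and 0.21 (H4) percentage points, each less than the spread between Royalactin libraries. A share within a library does not depend on the scaling between libraries. It does depend on gene length and on the 6 genes at 0, of which 4 are H2A and 2 are H2B genes. Summed per kilobase of annotated exon, H1 was not the highest class in any library. In serum/-LIF it summed to 72831 and 98183, below H2B (75791) in replicate 1 and H4 (102589) in replicate 2. With Royalactin it summed to 54722.5 and 77418, below H2B (55575) in replicate 1 and H4 (96806) in replicate 2.

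**Figure D3:**
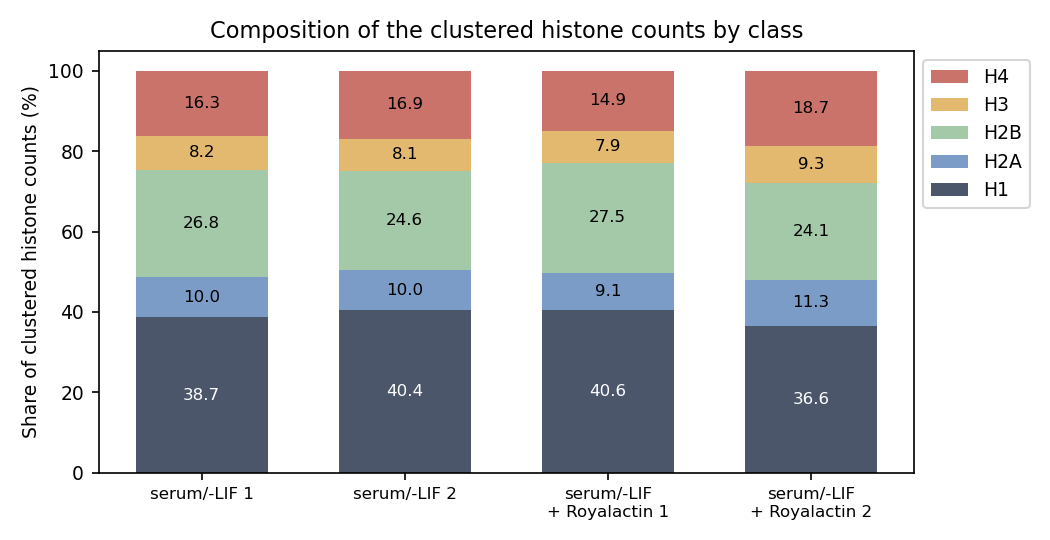
Each bar is a library and is divided into the percentage of clustered histone counts from each class. H1 takes 36.6 to 40.6% and H3, the smallest class, 7.93 to 9.25%. Royalactin replicate 2 has the lowest H1 and the highest H4 share.

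Gene by gene, no clustered histone gene was called. At a Benjamini-Hochberg adjusted p under 0.05 (limma on log2 of the normalised count plus 1, two-sided), 0 of 62 passed, where 0.493% of all 12993 genes tested did (0.331% higher and 0.162% lower with Royalactin). The smallest adjusted p was 0.292, that of Hist1h2bp, and 3 genes had an unadjusted p under 0.05, all lower with Royalactin. edgeR's quasi-likelihood test on the reads recovered from the table also called 0 of 62, with 3 below an unadjusted 0.05 and 0.423% of all genes called. Under the limits of the study's methods, an unadjusted p under 0.05 and a change of at least 2-fold, Hist1h2ba and Hist1h2bp were lower and none was higher, where 3.61% of all genes were lower and 3.52% higher (7.13% in either direction).

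The estimates nevertheless leaned to one side. The log2 fold change was below 0 for 53 of 62 genes (85.5%), against 50.6% of all genes tested, and its median was -0.38 against -0.01. The class medians were -0.46 for H1, -0.43 for H2A, -0.30 for H2B, -0.31 for H3 and -0.32 for H4. This lean went with Royalactin replicate 1, which was the lowest of the 4 libraries for 58 of 62 genes (93.5%), against 24.7% of all genes tested. Without that library the median over the 62 genes was 0.07 and 24 of 62 lay below 0. Serum/-LIF replicate 2 was the highest library for 38 of 62 genes (61.3%), against 31.6% of all genes tested, and without it the median was -0.19 and 48 of 62 lay below 0.

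**Figure D4:**
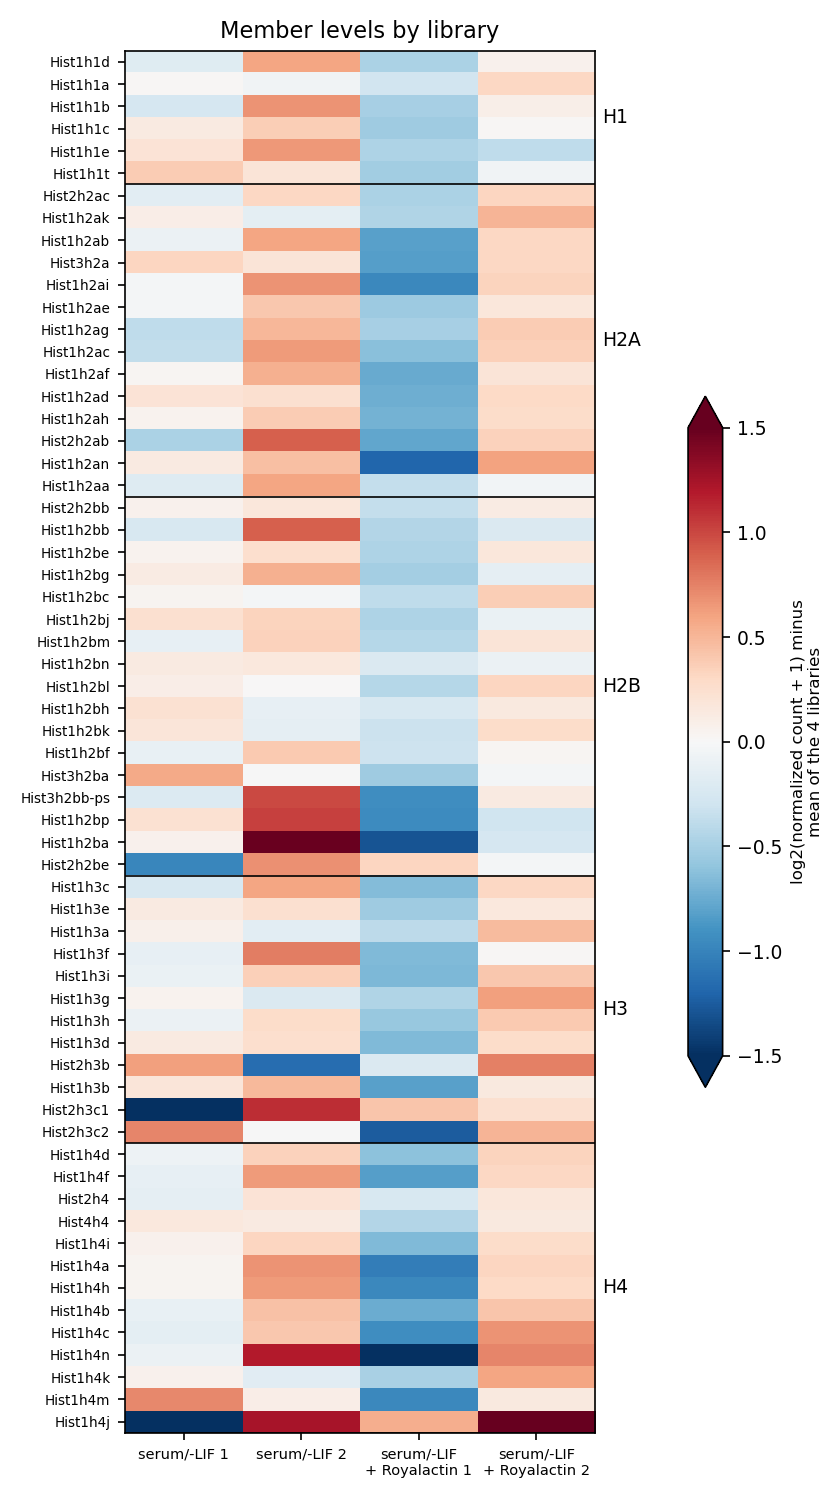
Each row is a clustered histone gene with reads, grouped by class and ordered by mean count within it, and each column a library. Colour gives log2(normalised count + 1) minus the gene's mean over the 4 libraries, from blue (lower) to red (higher), with the scale ending at 1.5 either way. Royalactin replicate 1 is the lowest library in 58 of 62 rows.

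Both Royalactin libraries lay below both serum/-LIF libraries for 10 genes, or 16.1%, where 18.9% of all genes tested did so. They lay above for none, where 19.7% of all genes did. The 10 were Hist1h1c, Hist1h1e and Hist1h1t of H1, 6 H2B genes (Hist1h2ba, Hist1h2bg, Hist1h2bj, Hist1h2bn, Hist1h2bp and Hist3h2ba) and Hist1h3b. No H2A or H4 gene was among them, but the share of 16.1% is not above that of all genes. The split by class was not tested. Taken by replicate number, 38 of 62 genes (61.3%) were lower with Royalactin in both pairs, against 29.1% of all genes. By class these were 5 of 6 for H1, 9 of 14 for H2A, 12 of 17 for H2B, 4 of 12 for H3 and 8 of 13 for H4. In replicate 1 alone 59 of 62 genes were lower, and in replicate 2 alone 40 of 62.

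**Figure D5:**
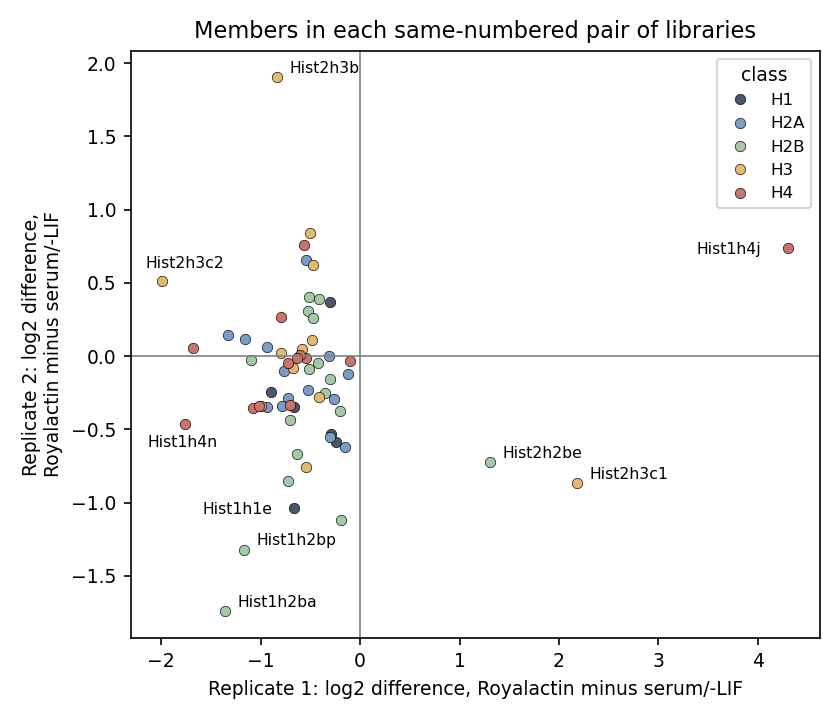
Each point is a clustered histone gene with reads, coloured by class, with its log2 difference, Royalactin minus serum/-LIF, in the libraries numbered 1 (horizontal axis) and numbered 2 (vertical axis). In 59 of 62 genes the point lies left of 0, and 40 of 62 lie below 0. Hist1h2ba and Hist1h2bp stand lowest on the vertical axis.

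In the H1 class most reads came from somatic subtypes. Hist1h1a, which encodes H1.1, had a normalised count of 17951 and 17025 in serum/-LIF and of 14530 and 22007 with Royalactin, a log2 fold change of 0.03 ± 0.37 (SE), and the Royalactin values lay on either side of the serum/-LIF values. Hist1h1b, H1.5, was at 12812 and 24415 without and at 10819 and 16259 with Royalactin, a log2 fold change of -0.42 ± 0.40 (SE). Hist1h1d, H1.3, was at 16999 and 29174 without and at 13842 and 20226 with Royalactin, a log2 fold change of -0.41 ± 0.40 (SE). Both overlapped between groups. Per kilobase of annotated exon the means over the 4 libraries were 23934 for Hist1h1a, 21637 for Hist1h1b and 5250 for Hist1h1d, whose annotated exon runs to 3821 bases.

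Hist1h1e, which encodes H1.4, had the most negative estimate of the class. It was at 12243 and 16729 in serum/-LIF and at 7733 and 8164 with Royalactin. The groups did not overlap, and the 2 Royalactin values were close together. The log2 fold change was -0.85 ± 0.33 (SE), and the p of 0.022 became 0.410 after adjustment over all genes. Without Royalactin replicate 1 the log2 fold change was -0.81. The log2 difference was -0.66 between the libraries numbered 1 and -1.03 between those numbered 2. The size of the estimate therefore depends on serum/-LIF replicate 2, the highest library. Of the windows of Hist1h1e 27.4% had a near-match elsewhere. Its mean level, 14996 per kilobase, was below those of Hist1h1a and Hist1h1b.

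The 3 members with roles in germ cells were read in every library, at low levels. Hist1h1t, the testis linker histone H1t, was at 158 and 139 in serum/-LIF and at 84.5 and 117 with Royalactin, with a log2 fold change of -0.57 ± 0.51 (SE). Its groups did not overlap, and none of its windows had a near-match elsewhere. Hist1h2aa, a testis H2A, was at 222 and 383 without and at 199 and 248 with Royalactin, and these overlapped, with a log2 fold change of -0.39 ± 0.42 (SE).

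Hist1h2ba, the testis H2B, had the most negative estimate of all 62 genes. It was at 143 and 384 in serum/-LIF and at 55.3 and 114 with Royalactin, and its groups did not overlap. The 2 serum/-LIF libraries differed more from each other than the lower of them did from the higher Royalactin library. Its log2 fold change was -1.55 ± 0.59 (SE), with a p of 0.020 and an adjusted p of 0.398. Of its windows 36.2% had a near-match elsewhere, so part of its reads may be shared with other genes. Hist1h2ba and Hist1h2aa start 306 bases apart in opposite directions.

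Among the other H2B genes, Hist2h2bb gave the most reads, 33.4% of the class. It was at 18034 and 19466 in serum/-LIF and at 13490 and 18836 with Royalactin, a log2 fold change of -0.23 ± 0.36 (SE), with the groups overlapping. No window of Hist2h2bb had a near-match elsewhere, so its count rests on its own sequence, and it is among the 3 genes without a stem-loop in the window searched. Hist1h2bb was at 5657 and 12508 without and at 4958 and 5752 with Royalactin, a log2 fold change of -0.66 ± 0.37 (SE). Only serum/-LIF replicate 2 stood apart there. Per kilobase the mean was 15392 for Hist1h2bb, the highest of the class, and 11553 for Hist2h2bb. Hist1h2be was at 4669 and 5366 without and at 3271 and 5060 with Royalactin, a log2 fold change of -0.30 ± 0.31 (SE). Another gene model, Gm11398, overlaps it on the same strand.

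Hist1h2bp had the smallest p of the 62 genes. It was at 440 and 766 in serum/-LIF and at 195 and 306 with Royalactin, so that the groups did not overlap and each same-numbered pair differed by a factor of more than 2. Its log2 fold change was -1.24 ± 0.40 (SE), with a p of 0.0084 and an adjusted p of 0.292. In 60.8% of its windows a near-match stood elsewhere, so part of its reads may be shared with other H2B genes. Its head-to-head neighbour Hist1h2an, an H2A gene 243 bases away, had a log2 fold change of -0.59 ± 0.50 (SE). At the other end, Hist2h2be had the only positive value of the class, 0.29 ± 1.02 (SE), from normalised counts of 12.0 and 40.4 without and 31.2 and 24.1 with Royalactin.

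In the H2A class the 3 most counted genes gave 44.6% of the counts, the lowest such share of the 5 classes. Hist2h2ac, with 20.0% of the class, was at 3619 and 5031 in serum/-LIF and at 2907 and 5041 with Royalactin, a log2 fold change of -0.16 ± 0.34 (SE). Hist1h2ak had the only positive estimate of the class, 0.06 ± 0.34 (SE), from 2689 and 2266 without and 1845 and 3575 with Royalactin. Hist1h2ab was at 2273 and 3653 without and at 1377 and 2995 with Royalactin, a log2 fold change of -0.50 ± 0.38 (SE). None of these separated the groups. Hist1h2ai had the most negative estimate, -0.64 ± 0.40 (SE), from 1472 and 2409 without and 769 and 1894 with Royalactin, and it too overlapped. Without Royalactin replicate 1 the value of Hist1h2ai was 0.01.

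The H3 class held a single gene with non-overlapping groups, Hist1h3b, which was at 300 and 370 in serum/-LIF and at 150 and 292 with Royalactin, where the nearest values of the groups, 300 and 292, almost met. Hist1h3c, with 28.0% of the class, was at 3969 and 7044 without and at 2980 and 5801 with Royalactin, a log2 fold change of -0.35 ± 0.38 (SE). Hist1h3e was at 2988 and 3202 without and at 1876 and 3030 with Royalactin, a log2 fold change of -0.38 ± 0.31 (SE). Hist1h3a was at 2466 and 2101 without and at 1782 and 3237 with Royalactin, a log2 fold change of 0.08 ± 0.33 (SE). The 2 Royalactin libraries enclosed both serum/-LIF libraries of Hist1h3a. The largest estimates either way came from genes with few reads, Hist2h3c1 at 0.66 ± 0.89 (SE), with 11 reads in serum/-LIF replicate 1, and the pseudogene Hist2h3c2 at -0.74 ± 0.89 (SE). Hist2h3c1 overlaps Hist2h2aa1 on the same strand in the annotation.

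In the H4 class Hist1h4d gave 42.3% of the counts and had the highest level per kilobase of all 68 genes, 37418. It was at 13480 and 18107 in serum/-LIF and at 9280 and 17954 with Royalactin, a log2 fold change of -0.28 ± 0.39 (SE), and Royalactin replicate 2 nearly equalled serum/-LIF replicate 2. Hist1h4f was at 3868 and 6568 without and at 2373 and 5203 with Royalactin, a log2 fold change of -0.52 ± 0.39 (SE). Hist2h4 was at 2661 and 3364 without and at 2480 and 3284 with Royalactin, a log2 fold change of -0.07 ± 0.30 (SE). All overlapped between groups. Hist1h4n had the most negative estimate, -1.11 ± 0.64 (SE), from 591 and 1436 without and 174 and 1042 with Royalactin. All of its windows had a near-match elsewhere, and its estimate turned to 0.18 without Royalactin replicate 1.

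Hist1h4j had the largest positive estimate of all 62 genes. It had 1 read in serum/-LIF replicate 1, a normalised count of 1.34, then 73.5 in serum/-LIF replicate 2 and 45.3 and 123 with Royalactin. The groups overlapped, and the log2 fold change of 2.52 ± 1.33 (SE), with a p of 0.080 and an adjusted p of 0.610, rests on the library with 1 read. Hist1h4k, whose start differs from it at 2 bases, was at 641 and 543 without and at 435 and 921 with Royalactin.

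H2A and H2B genes often lie head to head and share the stretch between their starts. There were 14 pairs of clustered histone genes with starts within 1000 bases and opposite directions, 13 of them an H2A with an H2B gene and 11 of these with both genes tested. The log2 fold changes of the paired genes differed by a median of 0.376, and those of all 238 combinations of an H2A with an H2B gene by 0.286. Hist1h2ac and Hist1h2bc, 251 bases apart, had log2 fold changes of -0.28 and -0.01, and Hist1h2ba and Hist1h2aa, the pair that differed most, -1.55 and -0.39.

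Histone variants outside the clusters, whose mRNAs are mostly polyadenylated and made throughout the cell cycle, were described in the same way. Of 11 tested, none was called, where 0.493% of all genes tested were. Of the 11, 6 were lower and 5 higher, and the median log2 fold change was -0.04. H1f0, a linker histone known to accumulate in differentiated cells, was at 621 and 985 in serum/-LIF and at 310 and 338 with Royalactin, so that its groups did not overlap. Its log2 fold change was -1.27 ± 0.36 (SE), with a p of 0.0032 and an adjusted p of 0.189. The largest positive value was that of H1fx, 1.02 ± 1.04 (SE), from 81.6 and 7.25 without and 46.3 and 58.5 with Royalactin, which overlapped. Royalactin replicate 1 was the lowest library for 4 of these 11 genes.

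The genes that act on histone mRNA and protein were tested in lists chosen with earlier results of these data known. No gene of these lists was called, where 0.493% of all genes tested were. Of 11 transcription regulators 3 were lower and 8 higher, with a median log2 fold change of 0.27. Ccne2, cyclin E2, was at 1071 and 2063 in serum/-LIF and at 552 and 668 with Royalactin (log2 fold change -1.29 ± 0.35 SE, adjusted p 0.181), and Ccne1, cyclin E1, at 1479 and 1134 without and at 2110 and 2320 with Royalactin (0.77 ± 0.30 SE, adjusted p 0.404). Neither overlapped between groups, and the 2 cyclins stood in opposite directions. Npat, the coactivator of histone transcription, was at 1688 and 2084 without and at 1991 and 1475 with Royalactin.

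Of 18 genes of histone mRNA 3' end processing and turnover 7 were lower and 11 higher, with a median of 0.17. The extremes were Zfp473, which acts in 3' end processing, at 0.52 ± 0.37 (SE), and Zcchc11, a uridylyl transferase, at -0.36 ± 0.35 (SE). Slbp was at 1282 and 2094 in serum/-LIF and at 1235 and 1691 with Royalactin, a log2 fold change of -0.18 ± 0.33 (SE), and these overlapped. Of 18 histone chaperones 6 were lower and 12 higher, with a median of 0.28. Hjurp, the chaperone of the centromeric histone, was at 86.9 and 42.4 without and at 163 and 137 with Royalactin, a log2 fold change of 1.28 ± 0.58 (SE) with an adjusted p of 0.521. The lowest value was that of Asf1a, -0.43 ± 0.34 (SE).

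Replication genes, many of which are also transcribed for S phase, had a median above 0. Of 37 DNA replication genes 14 were lower and 23 higher, with a median log2 fold change of 0.23, and Royalactin replicate 1 was the lowest library for 7 of them. Both Royalactin libraries lay above both serum/-LIF libraries for 14 of the 37, or 37.8%, against the 19.7% of all genes given above. The extremes were Orc1, a subunit of the origin recognition complex, at 0.53 ± 0.31 (SE), and Rpa3, a subunit of the single-strand binding complex, at -0.55 ± 0.42 (SE). Of 16 mitosis genes 8 were lower and 8 higher, with a median of 0.04, between Aurka, a mitotic kinase, at 0.50 ± 0.31 (SE) and Cdk1 at -0.49 ± 0.35 (SE). Of 5 CDK inhibitors tested 4 were lower and 1 higher, with a median of -0.21, between Cdkn2a at 0.76 ± 1.05 (SE) and Cdkn2b at -1.50 ± 1.28 (SE). The difference between any of these lists and the clustered histone genes was not tested.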

How the data were processed

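RNA-seq of J1 mESCs was used, with 2 libraries from serum/-LIF and 2 from serum/-LIF + Royalactin. Groups and replicate numbers came from the sample titles, which match the table's column names, and no column was left unmapped. The ATAC-seq samples of the series were not analysed here.

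Total RNA was depleted of ribosomal RNA and sequenced in single reads of 75 bases. Alignment by the authors was to mm9 with TopHat and at most 2 mismatches, and HTSeq-count gave reads for each gene. What they deposited is a signal proportional to reads, each count divided by a DESeq size factor of its library. Strand, annotation and the handling of reads with several places are not given in the sources used here. Dividing by the smallest step of a library turned 100% of its values into whole reads, to within 0.01 of a read. In Royalactin replicate 1 the step, 1.01, is too near 1 to tell recovered reads from rounding.

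Differences were tested with limma 3.58.1 in R 4.3.3 (trend, two-sided, Benjamini-Hochberg over all genes) on log2(normalised count + 1) for the 12993 genes with a mean of at least 10, a scale that understates changes of low genes. The limma test was also run on simulated data, and its outcome there is not given here. Alternatives were pseudocounts of 0.1 and 5, other filters and scalings, no trend, the replicate block, each library left out, and, chosen after seeing the data, edgeR 4.0.16 on recovered reads with TMM scaling and scaling of class sums to short RNAs. Class sums and shares carry no test. Window matches, exon lengths and stem-loops used the NCBIM37 (mm9) genome with the GENCODE annotation, which matched all 68 symbols. Promoters were RefSeq's.

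Genes named are, per class, the 3 with the highest mean, the highest and lowest log2 fold change, those passing either call rule, the 3 expressed in germ cells, and the extremes of each other list. Genes outside these were named where a count was small, as neighbours or for a shared coding start, after their values were seen. The members, lists and alternatives were chosen with earlier results of these data known. The lists cover histone variants, histone transcription, 3' end processing, chaperones, DNA replication, mitosis, CDK inhibitors, short RNAs, stem cell markers and fibroblast markers.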

Additional observations from a re-analysis of the deposited data

How the results depend on the processing

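The number of clustered histone genes called stayed at 0 under other pseudocounts, filters and scalings and with edgeR. Some settings say nothing further about these genes. The 23 genes with under 50% of windows shared were taken from the main fit with its adjusted p-values, so none could be called. Without the variance trend, or with a library left out, no gene of the table was called at all. With the replicate number as a block, 2 clustered histone genes were called (Hist1h2bp and Hist1h4n, smallest adjusted p 0.0302), while genes called in all rose from 64 to 391. The labels do not say that a number marks a shared culture, so the numbers were not taken to pair the samples. Deviations of same-numbered libraries correlated across genes by 0.0851 over all genes and 0.00812 over these genes. Such a correlation leaves out any shift common to the genes, so it cannot decide whether the numbers mark pairs. Every class sum was lower in replicate 1 than in replicate 2 in both groups. The log2 differences ran from -0.29 (H2B) to -0.48 (H1) in serum/-LIF and from -0.47 (H2B) to -0.98 (H4) with Royalactin. The block's mean log2 difference of the class sums was -0.40 for H1, -0.34 for H2A, -0.36 for H2B, -0.29 for H3, -0.35 for H4 and -0.36 for all.

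Genes called in all numbered 32 and 86 with pseudocounts of 0.1 and 5, 34 with every gene above 0, 99 at a mean of at least 50, 46 with upper-quartile scaling or with scaling to the total without Rn45s, 64 with the median of ratios, 55 with edgeR, and 0 without the trend (1135 at an unadjusted p under 0.05) or with any library left out (428 to 2496). The count under the study's limits was 2, became 4 with the block and 0 without the trend, and ranged from 0 to 8 with a library left out. Without Royalactin replicate 1 it was 0. With a library left out, the lone library of a group is assumed to vary like the other group.

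Scaled to the short RNAs, the log2 ratio of the class sums became 0.13 for H1, 0.18 for H2B and 0.14 for all, and the cause was not tested. These positive values rest on Royalactin replicate 1, as described above. With a library left out the unscaled log2 ratio ranged from -0.68 to -0.14 for H1, -0.84 to 0.14 for H2A, -0.60 to -0.13 for H2B, -0.75 to 0.14 for H3, -0.86 to 0.12 for H4 and -0.71 to -0.05 for all. The H3 median ranged from -0.76 to 0.21. Over genes with under 50% of windows shared the ratios were -0.40 for H1, -0.43 for H2A, -0.25 for H2B, -0.58 for H3 and -0.28 for H4.

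With a library left out, 18 of the named genes changed sign in at least 1 case. Their log2 fold changes ranged from -0.27 to 0.33 for Hist1h1a, -0.88 to 0.050 for Hist1h1b, -0.78 to 0.0030 for Hist1h2aa, -1.06 to 0.056 for Hist1h2ab, -1.29 to 0.0080 for Hist1h2ai, -0.42 to 0.53 for Hist1h2ak, -0.61 to 0.016 for Hist1h2be, -0.35 to 0.51 for Hist1h3a, -0.83 to 0.13 for Hist1h3c, -0.75 to 0.20 for Hist1h4d, -1.09 to 0.046 for Hist1h4f, -2.40 to 0.18 for Hist1h4n, -0.55 to 0.24 for Hist2h2ac, -0.47 to 0.0077 for Hist2h2bb, -0.54 to 1.12 for Hist2h2be, -0.78 to 2.09 for Hist2h3c1, -1.62 to 0.15 for Hist2h3c2 and -0.27 to 0.13 for Hist2h4. Depth limits Hist1h4j, Hist2h2be and Hist2h3c1 most, which had 1, 9 and 11 reads in serum/-LIF replicate 1.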
